A study of Mus musculus with 4 samples.

Results

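Open chromatin was described around 10 mouse genes that brake or drive the cell cycle and that are often altered when cells are immortalized: Trp53, Mdm2, Cdkn1a, Cdkn1b, Cdkn2a, Cdkn2b, Rb1, Myc, E2f1 and Ccnd1. They are 10 of the 21883 protein-coding genes of the RefSeq table used here. Peaks from 4 lists were merged wherever they overlapped by 1 bp or more, and every merged region in a gene body or within 50 kb of it was taken. This gave 363 of the 560228 regions of the whole series. Cdkn2a and Cdkn2b are neighbours and share regions, which were counted once.

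Chromatin was profiled by ATAC-seq, in which a transposase inserts sequencing adapters into exposed DNA, so that read pile-ups (peaks) mark accessible stretches. The cells were mpkCCD clone 11, a cultured mouse line of the cortical collecting duct of the kidney, at passages 8 to 10. Both groups were kept in complete medium, grown to confluence on permeable supports and moved to medium free of serum and hormones. They were then incubated for 30 minutes with 0.1 nM dDAVP (a V2 receptor agonist related to vasopressin) or with vehicle, and 2 libraries per group were made from 50000 cells each. Whether the replicates were separate cultures is not in the labels, and p-values therefore measure a spread that can be technical. All libraries come from a single clone of a single line, so the data describe that clone. As background, the mpkCCD line was derived from a mouse carrying the SV40 large T antigen as a transgene, a viral protein that binds the p53 and Rb proteins.

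The genes fall into 2 linked circuits. In the first, Trp53 encodes p53, a transcription factor that stops the cycle after DNA damage or oncogene signals, partly by switching on Cdkn1a, whose product p21 inhibits cyclin-dependent kinases. Mdm2, itself a p53 target, encodes the ubiquitin ligase that has p53 degraded, and the Arf protein of Cdkn2a blocks Mdm2. In the second, Rb1 encodes the protein that holds E2F factors such as E2f1 in check until cyclin D1 (Ccnd1) and its kinases phosphorylate it. The Ink4a product of Cdkn2a and the product of Cdkn2b (p15) inhibit those kinases, p27 from Cdkn1b inhibits later ones, and Myc drives growth and entry into the cycle.

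Promoter sequences are shown for Cdkn1a, Cdkn2a and Cdkn2b, because Cdkn1a and Cdkn2a each have 2 annotated starts that differ in these data and Cdkn2b stands next to Cdkn2a. Each runs 5′ to 3′ from 250 bases before to 50 bases after the annotated start (RefSeq, GRCm38.p6). The windows are chr17:29090729-29091028 (plus strand) and chr17:29093519-29093818 (plus strand) for the upstream and downstream starts of Cdkn1a. They are chr4:89294570-89294869 (minus strand) for the Arf start of Cdkn2a, chr4:89282143-89282442 (minus strand) for its Ink4a start, and chr4:89310983-89311282 (minus strand) for Cdkn2b. Capitals mark every match, on either strand, to the motifs searched.
Cdkn1a upstream start: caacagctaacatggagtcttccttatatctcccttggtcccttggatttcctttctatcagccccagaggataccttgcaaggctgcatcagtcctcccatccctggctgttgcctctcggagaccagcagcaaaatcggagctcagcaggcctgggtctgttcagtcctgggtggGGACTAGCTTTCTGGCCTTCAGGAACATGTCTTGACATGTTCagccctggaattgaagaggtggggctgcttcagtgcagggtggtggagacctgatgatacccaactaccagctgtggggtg
Cdkn1a downstream start: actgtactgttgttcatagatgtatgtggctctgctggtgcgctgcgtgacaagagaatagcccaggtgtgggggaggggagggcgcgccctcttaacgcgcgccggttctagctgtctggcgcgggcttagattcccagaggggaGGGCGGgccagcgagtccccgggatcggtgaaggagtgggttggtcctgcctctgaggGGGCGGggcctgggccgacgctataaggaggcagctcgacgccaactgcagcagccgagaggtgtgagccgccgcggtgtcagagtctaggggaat
Cdkn2a Arf start: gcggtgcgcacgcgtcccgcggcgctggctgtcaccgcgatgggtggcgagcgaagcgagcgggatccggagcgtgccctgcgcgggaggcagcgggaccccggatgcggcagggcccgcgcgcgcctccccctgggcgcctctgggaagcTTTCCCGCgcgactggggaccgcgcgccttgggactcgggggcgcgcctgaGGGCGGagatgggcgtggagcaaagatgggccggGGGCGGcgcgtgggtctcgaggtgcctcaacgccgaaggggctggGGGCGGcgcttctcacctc
Cdkn2a Ink4a start: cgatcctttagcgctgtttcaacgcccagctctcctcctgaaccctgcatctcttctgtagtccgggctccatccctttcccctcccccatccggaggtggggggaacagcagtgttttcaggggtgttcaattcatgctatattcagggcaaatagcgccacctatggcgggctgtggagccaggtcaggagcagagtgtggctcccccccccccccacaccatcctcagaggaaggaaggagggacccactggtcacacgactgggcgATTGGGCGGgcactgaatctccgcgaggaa
Cdkn2b start: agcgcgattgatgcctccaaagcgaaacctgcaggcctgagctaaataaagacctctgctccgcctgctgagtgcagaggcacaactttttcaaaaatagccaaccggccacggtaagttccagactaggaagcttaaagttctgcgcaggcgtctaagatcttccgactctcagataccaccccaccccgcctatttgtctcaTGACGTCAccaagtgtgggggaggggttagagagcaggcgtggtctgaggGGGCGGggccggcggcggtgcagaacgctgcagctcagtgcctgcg

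The motifs were GGGCGG (Sp1 box), CCAAT (NF-Y box), TGACGTCA (cAMP response element) with its core TGACG, which every full element also contains, CACGTG (a Myc E-box), TTTCCCGC, TTTGGCGC and TTTCGCGC (E2F sites), TATAAA (a box found near some starts) and the p53 consensus by name. The consensus has 2 copies of a 10-base unit separated by 0 to 13 bases, and up to 2 mismatches outside the core letters were allowed. Of all 32851 promoters in the table, 35.7% held GGGCGG, 37.4% CCAAT, 20.8% TGACG, 13.6% TATAAA, 7.15% CACGTG, 1.79% TGACGTCA, 1.07% TTTCCCGC, 0.514% TTTGGCGC and 0.323% TTTCGCGC. A match describes the letters and does not show that a factor binds there.

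The upstream Cdkn1a promoter was the only one of the 9 promoters of these genes with a match to the p53 consensus. An exact match with a 12-base spacer lay at chr17:29090906-29090937. A second match without spacer, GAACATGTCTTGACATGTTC, overlapped it at chr17:29090928-29090947 and began 51 bases upstream of the start. This second match is not exact and counts only under the allowance of mismatches. An exact match was found in 24 of the 32851 promoters (0.0731%), and a match with up to 2 mismatches in 697 (2.12%). The Arf promoter of Cdkn2a was 77.0% G and C and held GGGCGG beginning 48 and 14 bases upstream and TTTCCCGC 99 bases upstream. The Ink4a promoter was 60.3% G and C and held GGGCGG and an inverted CCAAT just after its start. The Cdkn2b promoter held the full TGACGTCA 46 bases upstream, and it was the only one of the 9 that did.

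The lists give positions only, with no score or read count. They held 291454 and 205771 peaks for dDAVP replicates 1 and 2, and 393956 and 206972 for vehicle replicates 1 and 2. Vehicle replicate 1 thus stood apart by its longer list, and results that rest on it are given with and without it. The depth behind the lists is unknown, so a missing peak means that none was called, not that the site was closed. The only graded value is the width of a peak, summed over the peaks of a library within a region. Marker genes were checked against the labelled cell type. A peak within 1 kb of a gene end was present in all 4 libraries for 6 of 9 principal cell genes, 5 of 5 epithelial genes and 3 of 12 genes of other cells, beside 65% of all protein-coding genes. The principal cell count is at that background and does not mark the cell type. The principal cell genes with such a peak in some libraries only were Aqp3, Avpr2 and Scnn1b.

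Nearly all of the 10 genes had an open end in every library. A peak within 1 kb of an outermost gene end was present in all 4 libraries for 9 of the 10, against 65% of the 21883 protein-coding genes. The exception was Cdkn1a, with no such peak in any library, and its widest region lay at its second, internal start. Of the 9 annotated promoters of these genes, 7 overlapped a peak in all 4 libraries, against 54.9% of 21262 promoters of protein-coding genes. The other 2 were the upstream start of Cdkn1a and the Ink4a start of Cdkn2a, and neither overlapped a peak in any library. These are the 2 genes of the set with more than 1 annotated promoter, and a split of this kind, with 1 promoter in a peak in all libraries and another in none, was seen in 22.3% of 2761 such genes. Rb1, Myc and Ccnd1 had no promoter entry and are described at their gene ends.

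**Figure D1:**
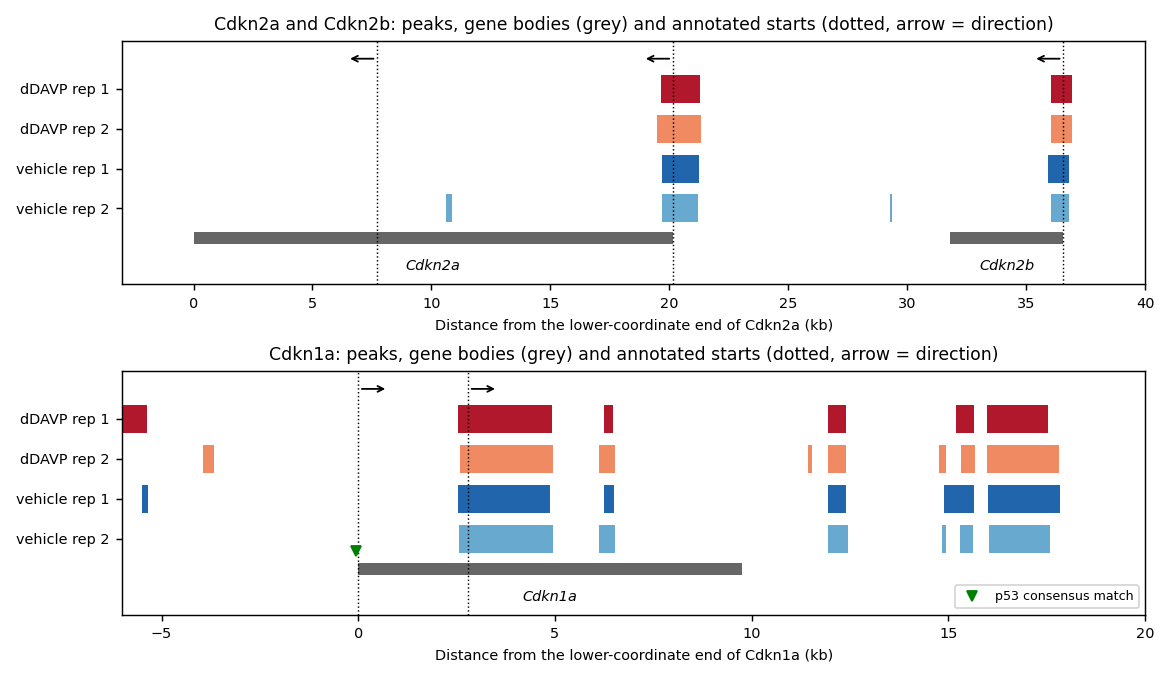
Peaks of each library (coloured blocks, dDAVP replicates above vehicle replicates) along Cdkn2a with Cdkn2b and along Cdkn1a, with distance in kb from the lower-coordinate end of the first gene, gene bodies in grey and annotated starts as dotted lines with arrows for direction. The Arf start, the Cdkn2b start and the downstream Cdkn1a start lie in a peak in all 4 libraries. The Ink4a start and the upstream Cdkn1a start lie in no peak of any library. The triangle marks the spacerless p53 consensus match near the upstream Cdkn1a start, which is not an exact match.

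At Cdkn2a (chr4:89274473-89294619), which encodes Ink4a and Arf from alternative first exons, the region over the Arf start (chr4:89293937-89295792) was 1624 and 1856 bp wide in the dDAVP libraries, against 1570 and 1518 bp in the vehicle libraries. The dDAVP libraries were the wider pair without overlap, by 0.21 ± 0.29 on the log2 scale (SE), which did not pass limma's test (adjusted p = 1.00). The same region also covers an end of the noncoding gene Gm12610, so accessibility there cannot be assigned to Arf alone. At the Ink4a start, the nearest peak lay 11.9 and 11.7 kb away in the dDAVP libraries, against 12.0 and 2.91 kb in the vehicle libraries. In 3 libraries that nearest peak was the Arf region itself. In vehicle replicate 2 it was a peak of 234 bp (chr4:89285100-89285333), the only one inside Cdkn2a apart from the Arf region. A region 48.1 kb from the gene (chr4:89226040-89226389) had 120 bp in dDAVP replicate 2 and none in dDAVP replicate 1, against 217 and 180 bp in the vehicle libraries.

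Cdkn2b (chr4:89306289-89311032), whose p15 product is a relative of Ink4a, had a region at its start (chr4:89310369-89311411) of 872 and 880 bp in the dDAVP libraries, against 884 and 742 bp in the vehicle libraries. It was about as wide in vehicle replicate 1 as in the dDAVP libraries, so the groups overlapped. The region was narrower than the Arf region in each library. Few other peaks surrounded the pair. The Cdkn2a window held 7 regions and the Cdkn2b window 8, the fewest of the 10 genes, with 3 and 3 peaks of the dDAVP libraries and 3 and 6 of the vehicle libraries near Cdkn2a, and 5 and 4 against 4 and 7 near Cdkn2b. The remaining regions near Cdkn2b held by all libraries were both narrow, a region 37.9 kb from the gene (chr4:89348934-89349176; 199 and 233 bp with dDAVP, 225 and 206 bp with vehicle) and one 49.4 kb away (chr4:89360438-89360702; 208 and 205 bp with dDAVP, 144 and 265 bp with vehicle). Per 100 kb, Cdkn2a had 5.83 regions and Cdkn2b 7.64, both below the 10.0 of the median gene of chromosome 4. Counting all-library regions alone, Cdkn2a had 1.66 and Cdkn2b 3.82 per 100 kb, against 2.93 for the median gene there.

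Cdkn1a (chr17:29090979-29100722) showed the opposite picture, with 65 regions in its window, 18 of them in all 4 libraries. Its density of 16.4 all-library regions per 100 kb was above that of 96.0% of the genes of chromosome 17. The region over the downstream start (chr17:29093509-29095926) was 2405 and 2374 bp wide in the dDAVP libraries, against 2351 and 2374 bp in the vehicle libraries. Its mean of 2376 ± 22.2 bp (SD, n = 4) was the widest start region of the 10 genes and exceeded 99.6% of all regions held by all libraries. Those regions lie in any place, so the percentage does not compare it with the starts of other genes. The upstream start, in contrast, lay in the longest peak-free stretch of the window (chr17:29087317-29093508, 6.19 kb). Its nearest peak was 2.53 and 2.57 kb away in the dDAVP libraries, against 2.53 and 2.57 kb in the vehicle libraries. The spacerless p53 match lay 2564 and 2606 bp from the nearest peak in the dDAVP libraries, against 2562 and 2600 bp in the vehicle libraries, and 2822 bp from the downstream start. No library had a peak over either match.

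The neighbourhood of Cdkn1a held further wide regions. A region 6.23 kb past the gene (chr17:29106956-29108804) measured 1560 and 1819 bp in the dDAVP libraries, against 1815 and 1555 bp in the vehicle libraries. A region inside Rab44 (chr17:29122512-29123919) measured 1352 and 1072 bp with dDAVP, against 1315 and 1171 bp with vehicle. In both, the groups overlapped. On the other side of the gene, both dDAVP libraries and neither vehicle library had a peak at chr17:29062246-29063250 (842 and 443 bp) and at chr17:29046828-29047119 (287 and 286 bp). The wider of these lies within Trp53cor1, a noncoding RNA gene induced by p53. Close beyond it lay a peak of dDAVP replicate 1 (chr17:29063448-29063548) and then one of vehicle replicate 1 (chr17:29063702-29063773). The dDAVP-only status of this wider region therefore rests on merging only peaks that overlap. The single region held by vehicle libraries alone (chr17:29145936-29146195; 260 and 201 bp) lay inside Rab44.

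**Figure D2:**
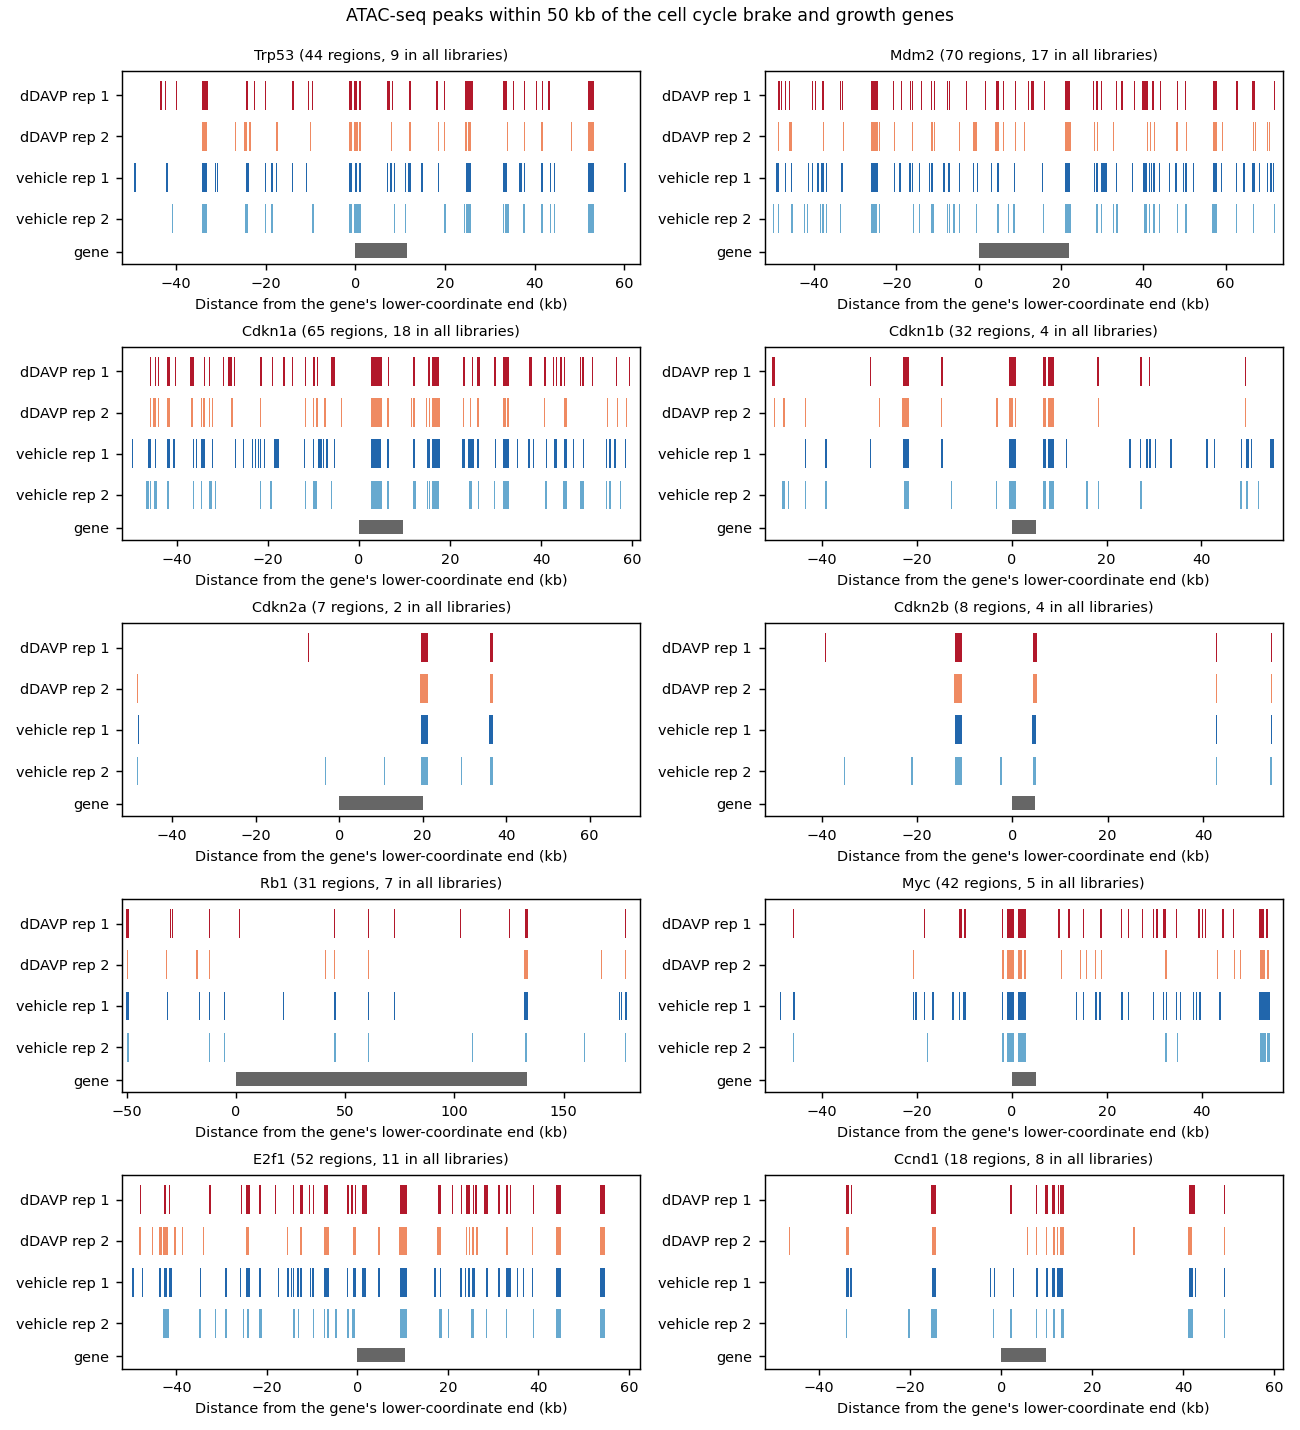
Peaks of each library (rows, dDAVP replicates above vehicle replicates) along each gene (grey bar) with 50 kb on both sides, with distance in kb from the lower-coordinate end of the gene. The Cdkn2a and Cdkn2b windows hold 7 and 8 regions, against 65 near Cdkn1a and 70 near Mdm2.

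Trp53 (chr11:69580348-69591873) had 44 regions, 9 of them in all libraries. Its start region (chr11:69579959-69581654) measured 1228 and 1190 bp in the dDAVP libraries, against 1108 and 1691 bp in the vehicle libraries. The larger vehicle value came from replicate 2, whose peak there was a single block, and the groups overlapped. The region also covers the end of Wrap53, an overlapping gene, so the 2 genes cannot be told apart here. A neighbouring region (chr11:69578878-69579656) measured 779 and 648 bp with dDAVP, against 658 and 686 bp with vehicle. At the far end of the gene, a region (chr11:69592108-69592695) was called in 3 libraries, with 305 and 328 bp with dDAVP, against 588 bp in vehicle replicate 1 and none in vehicle replicate 2.

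Trp53 had no dDAVP-only region, where 1.61% of all regions are dDAVP-only, and neither did Cdkn2a, Cdkn2b, Rb1 and Ccnd1. It had 4 vehicle-only regions among its 44, the most of the 10 genes, where 3.35% of all regions are vehicle-only. Each needed a peak in vehicle replicate 1, which has the longest list. They lay inside Trp53 (chr11:69588854-69589283; 369 and 357 bp), at its far end (chr11:69591347-69591624; 139 and 177 bp), at neighbouring ends of Efnb3 and Wrap53 (chr11:69561619-69561989; 366 and 262 bp) and by Sat2 (chr11:69624568-69624685; 104 and 116 bp). All were narrower than the median all-library region of 467 bp. The 3 other regions with the greatest width among those held by all libraries lay at or in other genes. One inside Dnah2 (chr11:69546093-69547420) measured 1212 and 1232 bp with dDAVP, against 1187 and 1201 bp with vehicle. One at Fxr2 (chr11:69632286-69633532) measured 1246 and 1221 bp with dDAVP, against 1224 and 1181 bp with vehicle. One at Atp1b2 (chr11:69604881-69606635) measured 1755 and 970 bp with dDAVP, against 1271 and 1234 bp with vehicle, so its dDAVP replicates lay on both sides of the vehicle libraries.

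Mdm2 (chr10:117688875-117710758) had the largest number of regions, 70, of which 17 were in all libraries. Its start region (chr10:117709907-117711309) measured 1218 and 1382 bp in the dDAVP libraries, against 1195 and 1397 bp in the vehicle libraries. Replicates with the same number were closer to each other there than replicates of the same treatment. The other end of Mdm2, next to the end of Cpm, had a region (chr10:117687512-117688800) of 956 bp in dDAVP replicate 2 and none in dDAVP replicate 1, against 637 and 211 bp in the vehicle libraries. Inside the gene, 12 regions were found, 3 of them in all libraries. One, chr10:117694736-117695050, was held by dDAVP libraries alone (226 and 315 bp).

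Much of the open chromatin near Mdm2 belonged to Cpm, a carboxypeptidase gene. The widest region there (chr10:117662710-117664330) measured 1606 and 1569 bp with dDAVP, against 1600 and 1577 bp with vehicle. The region at Slc35e3 (chr10:117745657-117746790) measured 985 and 1045 bp with dDAVP, against 1040 and 1066 bp with vehicle. A region outside protein-coding genes (chr10:117728662-117730047) lay 17.9 kb beyond the annotated start of Mdm2, on its upstream side. It measured 1386 and 218 bp with dDAVP, against 1054 and 780 bp with vehicle. The region thus varied more between dDAVP replicates than between treatments. The 3 vehicle-only regions of the window were all inside Cpm and were 112 to 230 bp wide in the libraries that held them.

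Rb1 (chr14:73192858-73325951) is the longest of the genes, at 133094 bp, and had 31 regions with 7 in all libraries. The region at its upper-coordinate end (chr14:73324889-73326510) measured 1531 and 1619 bp in the dDAVP libraries, against 1612 and 1283 bp in the vehicle libraries. The groups overlapped. The opposite end had a single peak of 110 bp in vehicle replicate 2. Inside Rb1, all libraries had a region at an end of Lpar6, a receptor gene nested in Rb1 (chr14:73237826-73238691). It was narrower with dDAVP, at 350 and 505 bp, against 806 and 843 bp with vehicle, by -0.88 ± 0.38 on the log2 scale (SE), which did not pass limma's test (adjusted p = 1.00). Regions inside the neighbours Rcbtb2 (chr14:73142730-73144114; 1035 and 856 bp with dDAVP, 1275 and 1074 bp with vehicle) and Itm2b (chr14:73370787-73371820; 239 and 569 bp with dDAVP, 724 and 470 bp with vehicle) were also in all libraries. The vehicle-only region of this window (chr14:73187443-73187571) was 108 and 72 bp wide.

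E2f1 (chr2:154559400-154569892), the first-described E2F factor and a direct partner of Rb, had 52 regions with 11 in all libraries. Its start region (chr2:154568607-154570406) measured 1424 and 1800 bp in the dDAVP libraries, against 1526 and 1593 bp in the vehicle libraries. The dDAVP replicates lay on both sides of the vehicle libraries. Its other end, next to Necab3, had a region in all libraries too (chr2:154558078-154559073; 642 and 619 bp with dDAVP, 739 and 673 bp with vehicle). A region inside Cbfa2t2 (chr2:154516422-154518462) measured 731 and 1023 bp with dDAVP, against 1283 and 1422 bp with vehicle. The treatments did not overlap there, nor at the Necab3 end, nor at the Pxmp4 and Zfp341 regions below. None of these passed limma's test. Regions at Pxmp4 (chr2:154603235-154604453; 1114 and 1056 bp with dDAVP, 1219 and 1148 bp with vehicle) and inside Zfp341 (chr2:154612910-154614145; 1138 and 1205 bp with dDAVP, 1117 and 1120 bp with vehicle) were also in all libraries. The treatment-specific regions of the window were also inside Cbfa2t2, 1 with dDAVP (chr2:154511220-154511598; 305 and 162 bp) and 2 with vehicle (chr2:154524423-154524930; 350 and 389 bp, and chr2:154530185-154530604; 284 and 414 bp). A peak of vehicle replicate 1 (chr2:154511676-154511953) lay close to the dDAVP-only region. The status of that region therefore rests on merging only peaks that overlap.

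Cdkn1b (chr6:134920401-134925525) had 32 regions, 4 of them in all libraries. Its start region (chr6:134919761-134921376) measured 1518 and 1247 bp in the dDAVP libraries, against 1495 and 1499 bp in the vehicle libraries. The low value was that of dDAVP replicate 2, where the region was split into separate peaks. Past the gene, 2 more regions were in all libraries, at chr6:134926930-134927725 (773 and 738 bp with dDAVP, 501 and 724 bp with vehicle) and at chr6:134928026-134929375 (1281 and 1344 bp with dDAVP, 1234 and 1092 bp with vehicle). In both, the dDAVP libraries were the wider pair without overlap, which did not pass limma's test. Around 44 kb past the gene, narrow regions specific to each treatment lay side by side: chr6:134969549-134969744 with dDAVP (92 and 196 bp), and chr6:134968609-134968912 (201 and 304 bp) and chr6:134969837-134970429 (593 and 72 bp) with vehicle. The dDAVP-only region and the wider of these vehicle-only regions lie so close together that their treatment-specific status rests on merging only overlapping peaks. A region at the end of Gpr19 (chr6:134897268-134898796) measured 1251 and 1529 bp with dDAVP, against 1137 and 1105 bp with vehicle. The dDAVP libraries were again the wider pair, which did not pass limma's test either. The third vehicle-only region (chr6:134881007-134881633; 627 and 489 bp) lay inside Gpr19, at the end of Crebl2.

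Myc (chr15:61985341-61990361) had 42 regions, of which 5 were in all libraries. The region at its lower-coordinate end (chr15:61984249-61985838) measured 1378 and 1469 bp in the dDAVP libraries, against 1411 and 1561 bp in the vehicle libraries. The region inside the gene (chr15:61986686-61988322) measured 1511 and 1020 bp with dDAVP, against 1559 and 1637 bp with vehicle. There the low value was that of dDAVP replicate 2. At the Myc-facing end of Pvt1, a noncoding gene next to Myc, a region (chr15:62037331-62039601) measured 1441 and 1164 bp with dDAVP, against 2263 and 1643 bp with vehicle. The vehicle libraries were the wider pair without overlap, which did not pass limma's test. The dDAVP-only region of this window lay 41.5 kb past Myc (chr15:62031879-62032278; 213 and 207 bp). A region 26.7 kb past the gene (chr15:62017090-62017963) had 788 and 80 bp with dDAVP, against 167 and 360 bp with vehicle.

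Ccnd1 (chr7:144929931-144939831) had 18 regions, 8 of them in all libraries. The region at its upper-coordinate end (chr7:144939610-144940268) measured 593 and 324 bp in the dDAVP libraries, against 581 and 107 bp in the vehicle libraries. It was narrower in both second replicates, and its mean of 401 ± 232 bp (SD, n = 4) exceeded only 40.9% of all-library regions. It was the only one of the 10 start or end regions below the median of 467 bp. A wider region lay 2.38 kb beyond that upper-coordinate end (chr7:144942214-144943690), at 816 and 969 bp with dDAVP, against 1311 and 694 bp with vehicle. A region at LTO1 (chr7:144914482-144915724) measured 1187 and 1015 bp with dDAVP, against 957 and 1243 bp with vehicle. One 31.3 kb beyond the upper-coordinate end of Ccnd1 (chr7:144971088-144972561) measured 1221 and 770 bp with dDAVP, against 1005 and 1037 bp with vehicle. Both were of similar width. No region near Ccnd1 was specific to a treatment.

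Across the genes, the start or end regions had a median mean width of 1447 bp, and their log2 differences between dDAVP and vehicle ran from -0.12 at Trp53 to 0.92 ± 0.85 (SE) at Ccnd1, all with a limma adjusted p of 1.00. Over all 83 all-library regions near the 10 genes, limma called 0 at an adjusted p under 0.05, and 0 of the 88231 regions in the whole series (0%). The lowest adjusted p near the genes was 0.870, and an unadjusted p under 0.05 was found for 5 of the 83 and for 4655 of the 88231. The median log2 difference was 0.00 near the genes and 0.04 over all regions. Without vehicle replicate 1 it was -0.10 near the genes, and without vehicle replicate 2 it was 0.10, so its sign depends on single libraries. Of the 5 regions, 4 were narrower with dDAVP. The strongest was at Srsf3, in the Cdkn1a window (chr17:29044195-29045283), with 127 and 93 bp with dDAVP, against 685 and 747 bp with vehicle (log2 difference -2.64 ± 0.33 SE; limma adjusted p = 0.870).

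**Figure D3:**
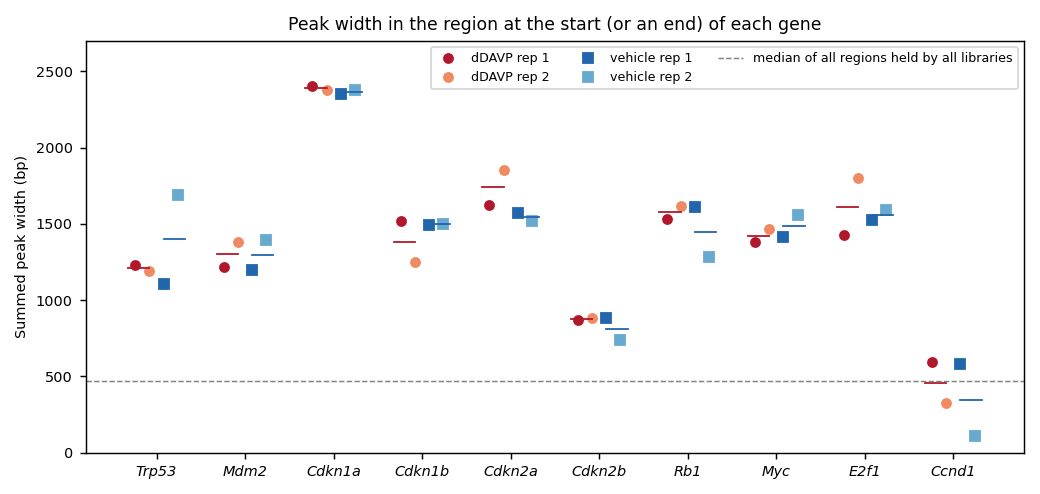
Summed peak width in bp in the region at the start (or, for Rb1, Myc and Ccnd1, an end) of each gene, with dDAVP replicates (circles) left of vehicle replicates (squares), short lines for group means, and a dashed line for the median of all regions held by all libraries (467 bp). Cdkn1a is the widest (2351 to 2405 bp) and Ccnd1 the narrowest (107 to 593 bp). The dashed line covers regions in any place, not gene starts alone.

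Most regions near the genes were called in some libraries only. Of the 363 regions, 83 (22.9%) were in all 4 libraries, against 15.7% of all regions, and 173 (47.7%) were in 1 library only, against 53.1% of all regions. These shares are a description with no test. The all-library regions near the genes had a median length of 949 bp, against 770 bp for all such regions. By place, 10 of the 14 regions at an end of one of the genes were in all libraries, as were 9 of 35 inside them, 14 of 41 at an end of another gene, 24 of 130 inside another gene and 26 of 143 outside protein-coding genes.

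The share of peaks near these genes did not differ between dDAVP and vehicle beyond the spread between replicates. The windows held 209 and 168 peaks of the dDAVP libraries, against 251 and 168 of the vehicle libraries. Per 10000 peaks of the list this was 7.17 and 8.16 with dDAVP, against 6.37 and 8.12 with vehicle. The means were 7.67 ± 0.702 with dDAVP and 7.24 ± 1.23 with vehicle (SD, n = 2 each), a ratio of 1.06 (exact permutation test, two-sided p = 0.667, smallest possible p 0.333). The ratio was 0.945 without vehicle replicate 1 and 0.990 without dDAVP replicate 2, so its direction rests on single libraries. It was 1.13 without dDAVP replicate 1 and 1.20 without vehicle replicate 2.

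Regions called in both replicates of a treatment but in no replicate of the other were few. There were 6 dDAVP-only regions among the 363, where 1.61% of all regions are dDAVP-only, and 14 vehicle-only regions, where 3.35% of all regions are vehicle-only. Both counts lie near what those background shares give. Of the vehicle-only regions, 2 lay in or at the end of Trp53. Merging peaks that lie close together without overlapping gave 4 dDAVP-only and 15 vehicle-only regions. The counts change when 1 library is left out. A region then needs only 1 library of its own treatment, or can be excluded by only 1 of the other. dDAVP-only regions then numbered 38 without dDAVP replicate 1, 51 without dDAVP replicate 2, 20 without vehicle replicate 1 and 11 without vehicle replicate 2. Vehicle-only regions numbered 33, 21, 46 and 87 in the same cases.

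**Figure D4:**
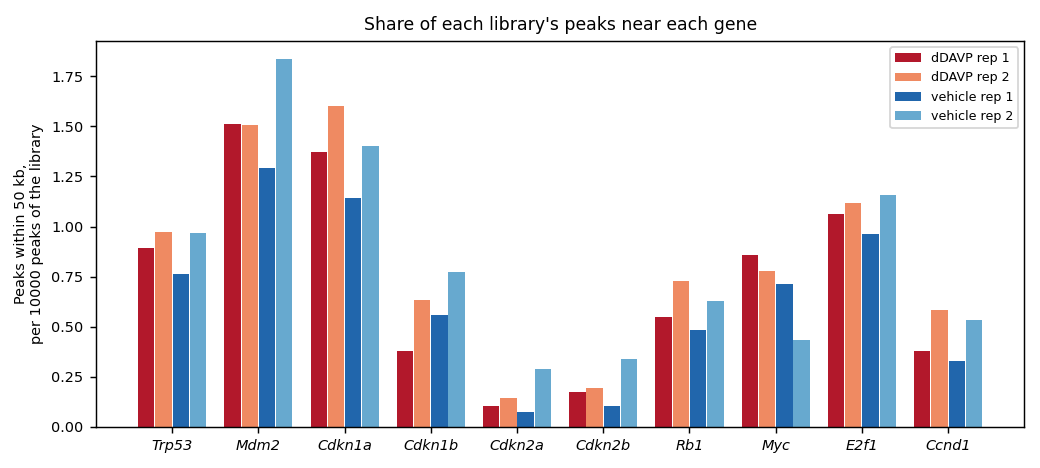
Peaks within 50 kb of each gene per 10000 peaks of the library, with bars for dDAVP replicates 1 and 2 left of vehicle replicates 1 and 2. Myc has 0.858 and 0.778 in the dDAVP libraries, against 0.711 and 0.435 in the vehicle libraries, and the lowest shares are those of Cdkn2a (0.0762 to 0.290) and the highest reach 1.84 at Mdm2.

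At Myc, the window held 25 and 16 peaks in the dDAVP libraries, against 28 and 9 in the vehicle libraries. Per 10000 peaks this was 0.858 and 0.778 with dDAVP, against 0.711 and 0.435 with vehicle, and the low value is that of vehicle replicate 2 alone. The dDAVP libraries were the higher pair at Myc, while the groups overlapped at each of the other genes. Myc thus stands out here by its values and not by a test. At 2 libraries per group an exact permutation test cannot go below p = 0.333, so no single gene could pass a threshold of 0.05. Cdkn1b had 0.377 and 0.632 with dDAVP, against 0.558 and 0.773 with vehicle, and the groups overlapped.

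A homozygous loss of one of these loci, as occurs at Cdkn2a in many immortalized lines, would leave a stretch without any peak in every library. No such stretch of 50 kb or more touched the windows of the 10 genes, while 19.7% of all protein-coding genes had one. A loss shorter than 50 kb could not reach this cut, and every gene body but that of Rb1 is shorter than that. Every library had at least 3 peaks in every window, and a peak at a start or end of each gene. The longest stretch was 40.6 kb (chr4:89226390-89267005), next to Cdkn2a, within its window and reaching into that of Cdkn2b. On chromosome 4 that is ordinary: the median gene there had 44.8 kb, 52.7% of its genes had a longer stretch, and 41.3% had one of 50 kb or more. Over all protein-coding genes the median was only 16.8 kb, and 24.4% had a longer stretch than Cdkn2a. When only regions of 2 or more libraries were allowed to end a stretch, the stretch at Cdkn2a and Cdkn2b became 67.5 kb, as 59.8% of chromosome 4 genes and 36.4% of all genes then had 50 kb or more. Within 500 kb of the pair, the longest stretch was 69.2 kb (chr4:89058793-89128035) and touched no protein-coding gene.

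The other genes had shorter gaps. Rb1 had 30.1 kb inside the gene (chr14:73265532-73295674), longer than the 18.1 kb of the median gene of chromosome 14, and 25.1% of the genes of that chromosome had a longer one. Without vehicle replicate 1, the longest stretch near Rb1 was 39.0 kb. Myc had 24.9 kb on its lower-coordinate side (chr15:61939634-61964531), and only 2.58% of chromosome 15 genes had a longer one, with a median of 6.98 kb. By this measure Myc stood furthest from the genes of its chromosome. Ccnd1 had 30.1 kb, against 47.6 kb for the median gene of chromosome 7. Without vehicle replicate 1 this became 46.0 kb, then the longest of the 10 genes, against 40.8 kb at Cdkn2a and Cdkn2b. Cdkn1b had 9.54 kb, or 19.1 kb without vehicle replicate 1, against a median of 20.7 kb on chromosome 6. E2f1, Trp53, Mdm2 and Cdkn1a had 8.46, 7.72, 6.69 and 6.19 kb, each below its chromosome's median. A list of peaks does not tell lost DNA from closed chromatin or sequence to which reads cannot be mapped, and the loss of 1 of 2 copies was not tested.

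**Figure D5:**
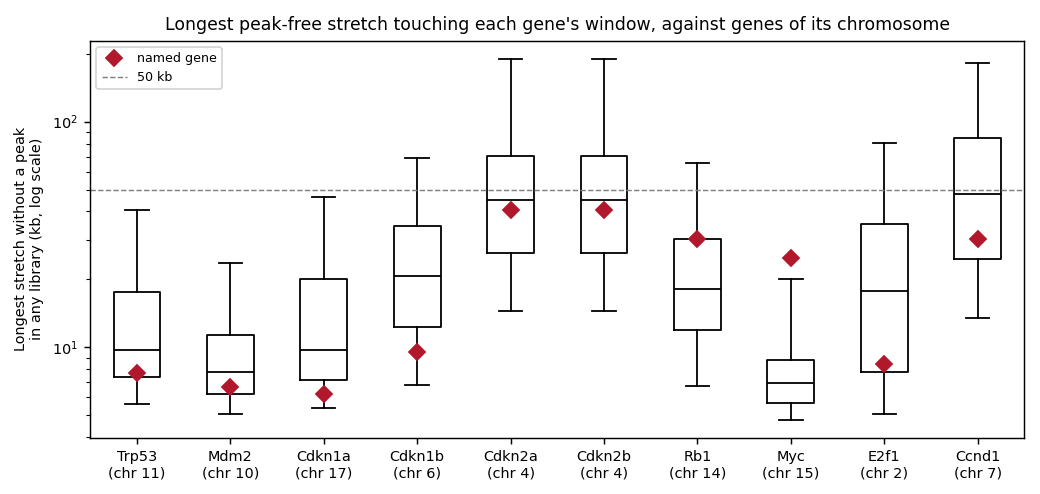
Longest stretch in kb without a peak in any library that touches each gene with 50 kb on both sides (diamonds, log axis), beside the same value for all protein-coding genes of its chromosome (boxes for quartiles with the median, whiskers for the 5th to 95th percentile). All 10 genes lie below the dashed line at 50 kb, and Myc, at 24.9 kb, lies above its chromosome's whisker.

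Around this core, 83 genes of the same pathways, in lists drawn up with earlier results of these data known, were open at a gene end in all 4 libraries in 75 cases and in no library in 1, beside the 65% of all protein-coding genes. All 15 genes of the Rb family, E2F and the DREAM complex had such a peak in every library, with the widest at E2f3 (2666 ± 35.3 bp over the 4 libraries), Lin52 (1580 ± 38.0 bp) and Lin9 (1405 ± 29.8 bp; SD, n = 4 each). All 10 genes of the Myc network did as well, led by the repressor partner Mnt (3013 ± 239 bp), Mycn (1539 ± 175 bp) and Mxd3 (1446 ± 140 bp). So did all 11 telomere and senescence genes, led by Tbx3 (1752 ± 312 bp), which represses Arf, Acd (1593 ± 112 bp) and Bmi1 (1536 ± 100 bp), a Polycomb subunit that represses Cdkn2a. Of 12 G1 and S phase genes, 11 did, with Ccne2 (1931 ± 106 bp), Fbxw7 (1827 ± 17.8 bp) and Ccne1 (1489 ± 18.8 bp) widest. Skp2, which marks p27 for degradation, had a gene-end peak of 72 bp in vehicle replicate 1 only. All 4 libraries had a peak within Skp2.

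Among p53 targets, 19 of 20 were open at a gene end in all libraries. Bax (1636 ± 374 bp) and Bbc3 (1570 ± 87.2 bp), which trigger apoptosis, and Btg2 (1553 ± 427 bp) were widest, and Eda2r on the X chromosome had none. Of 12 p53 regulators, 7 were open in all libraries, with Ppm1d, Cop1 and Chek2 widest. The other 5, Mdm4, Trp53bp1, Trp63, Trp73 and Usp7, had a gene-end peak in some libraries. All 5 had a peak within the gene in every library. Of the remaining Cdk inhibitors, Cdkn2c (1811 ± 254 bp) and Cdkn2d (1014 ± 33.0 bp) were open in all. Cdkn1c, an imprinted gene, had 221 and 301 bp with dDAVP, against 1717 and 0 bp with vehicle. The Cdkn1c value of vehicle replicate 1 stands far from the rest.

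The genes flanking Cdkn2a and Cdkn2b, which are often lost together with them, differed. Mtap (856 ± 28.3 bp), an enzyme of methionine salvage, and Klhl9 (902 ± 78.1 bp) had gene-end peaks in all libraries. Elavl2 and Ifnb1 had none, Ifna1 had a peak in vehicle replicate 1 only, and Dmrta1 had none in either dDAVP library, against 247 and 422 bp in the vehicle libraries. Within the interferon cluster from Ifnb1 to Ifne (chr4:88522025-88880201), 1 of 17 genes had a gene-end peak in all libraries and 13 had none in any. Of all chromosome 4 genes, 57.8% had such a peak in all libraries. The span of the cluster, which also includes Klhl9, held 40 regions.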

How the data were processed

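ATAC-seq peaks were analysed in 4 libraries of mpkCCD cells. Per the submitters' processing notes, the authors used cutadapt, Bowtie2, SAMtools, Picard, bedtools and MACS2 with mm10. For these tools, versions and settings (peak threshold, duplicate removal, mitochondrial reads, offset of the cut site) were not given in the sources used here. Each library came as 1 list of positions from the authors (chromosome, start and end, with no other value), which shows no pooling of replicates. No score, depth or intensity could be used, and a longer list may reflect deeper sequencing.

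Groups and replicate numbers came from the sample titles. Peaks overlapping by 1 bp or more were merged. Genes were the 21883 protein-coding genes on chromosomes 1 to 19, X and Y of a RefSeq table for GRCm38.p6 (mm10), which has no strand. Promoters with strand came from RefSeq entries of 300 bases. Coordinates are 1-based. Summed widths of regions held by all libraries were log2-transformed, quantile-normalized and compared with limma 3.58.1 (R 4.3.3), with Benjamini-Hochberg adjustment over all 88231 regions at 0.05. Shares of peaks were compared by exact permutation. Other steps ran in Python 3.11.15 with pandas 2.3.3, and the merging and width steps were tested on simulated data. The simulated widths varied less between libraries than the real ones, so that check does not show what change limma could detect here. All 10 genes are described, with their gene-end regions, the 3 other regions present in most libraries and widest, and every treatment-specific region. The alternatives were other windows, merging rules, list lengths, width scalings and leaving out each library. Members, lists and sequences shown were chosen with earlier results of these data known. Regions at Srsf3, and the choice of 5 promoters to print, followed their values, as did the allowance of 2 mismatches in the p53 consensus and the median width difference.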

Additional observations from a re-analysis of the deposited data

How the results depend on the processing

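Gene ends open in all libraries were found for 9 genes without any 1 library and with windows of 0.5 kb, for 10 with 2.5 kb, and for 7 of 7 at annotated starts. Region counts follow the window: 25 kb gave 207 regions, 52 in all libraries, 1 dDAVP-only and 5 vehicle-only, and 100 kb gave 704, 140, 16 and 20. Merging peaks that lie close together without overlapping gave 334 regions, 85 in all libraries, 4 dDAVP-only and 15 vehicle-only. Without 1 library at a time, dDAVP-only regions numbered 11 to 51 and vehicle-only regions 21 to 87, since fewer libraries define them. The ratio of peak shares ran from 0.945 to 1.20, and fell below 1 without dDAVP replicate 2 (0.990) and without vehicle replicate 1 (0.945), where the cause was not tested. Ending stretches only at regions of 2 or more libraries made the longest 67.5 kb in place of 40.6 kb. No label says that replicate numbers pair libraries, and the paired deviations correlated weakly (r = 0.0969 over 88231 regions). With a replicate block the share ratio was 1.06 and limma again called 0 regions near the genes. The widest 205771 peaks of each list gave 288 regions, 67 in all libraries, and a ratio of 1.01. Unknown depth limits every statement on a missing peak, and 2 libraries per group limit every test.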
